A study of Mus musculus with 30 samples.

Results

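The stroke-denervated cervical hemicord at 14 dpi was compared with the same tissue of sham-operated mice. The values of 5 animals at 14 dpi and of 5 sham animals were used, 10 of the 29 animals with values in the series, and all 16995 genes of the table were compared. All mice were adult female C57BL/6 animals. The 14 dpi group had received a photothrombotic stroke of the right sensorimotor cortex 14 days before, and the sham group, labelled Ctrl, had the operation without the lesion. In both groups the intermediate laminae of the cervical cord at C5/C6 were trimmed out under a microscope, on the side opposite the stroke, and ribosome-depleted total RNA of this mixed tissue was sequenced. The trimming was coarse, so the share of each cell type can differ between pieces. In such bulk tissue fewer cells of a type and less RNA per cell cannot be told apart.

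Corticospinal axons from the infarcted cortex degenerate on the opposite side of the cord, while corticospinal motor neurons (CSMNs) of the spared hemisphere can sprout across the midline into the emptied laminae. Microglia, the resident phagocytes of the cord, respond to degenerating fibres by taking up debris with the help of complement, Fc receptors and lysosomal proteases. The comparison with sham asks which genes of the target tissue differ at a time when such sprouting is under way.

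Values are the authors' normalized CPM, rounded to 0.1, and fold changes are on the log2(value + 0.5) scale, so changes of genes with low values come out smaller than they are. A gene was called a significantly differentially expressed gene (SDEG) at a limma adjusted p under 0.05, adjusted over all genes, and a fold change above 1.5. The study uses the same name but states its limit as a log2 fold change of 1.5. Its own test was not repeated, so its counts of SDEGs cannot be set beside these. A single gene of the 16995 (0.00588%) was an SDEG at 14 dpi, the small RNA Rn7s6, which fell. Below that limit, 1062 genes (6.25%) were higher and 911 (5.36%) lower than in sham animals at an unadjusted p under 0.05, and 189 genes (1.11%) lay higher and 162 (0.953%) lower without any overlap between the 5 and 5 animals. These shares are the background against which the gene lists are read. The smallest p that an exact two-sided permutation test of 5 against 5 animals can give is 0.00794, and every gene without overlap has that value.

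2 features of the animals touch these counts. The 18S ribosomal RNA gene Rn18s-rs5 stood at 30320.8 to 52929.1 in sham animals and at 32753.5, 40690.7, 95113.7, 419049.7 and 817779.7 at 14 dpi, so that animals A5-3 and A6-3 exceeded the highest sham animal 7.92-fold and 15.5-fold. Without these 2 animals, 852 genes (5.01%) were higher and 792 (4.66%) lower. The sham animals differed in their balance of short and long genes, with A11-1 at one end and A12-1 at the other. Without A11-1, 492 genes (2.89%) were higher and 566 (3.33%) lower, and without A12-1, 1509 were higher and 1280 lower, so the counts moved with single sham animals. After correction of each animal for gene length and GC content, 829 genes (4.9%) were higher and 711 (4.2%) lower. The scaling matters more than either. In the same-sum scaling, the values of each animal were rescaled to the same sum over genes not annotated as ribosomal RNA. The median log2 fold change of all genes then went from -0.01 to -0.28, with 25 genes (0.147%) higher and 4504 (26.5%) lower. These shares are the background for counts under that scaling. AY036118, a lincRNA of the ribosomal RNA list, stayed in the sum. Without Rn18s-rs5 alone, sums were 743031 to 773548 in sham animals and 756013 to 1358230 at 14 dpi. Directions below are those of the authors' scaling, and under the same-sum scaling they hold relative to that shifted median where stated. No 2 animals held identical values.

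Rn7s6 is annotated as a misc_RNA gene of 291 bases and resembles 7SL, the RNA of the signal recognition particle that guides nascent secretory proteins to the endoplasmic reticulum. Its value was 5.2 and 5.2 in sham animals A11-1 and A11-4, and 2.9, 3.0 and 2.8 in A12-1, A12-2 and A12-3. At 14 dpi it was 0.3, 0.2, 0.1, 0.1 and 0.2. The highest value at 14 dpi was far below the lowest sham value. The log2 fold change was -2.63 (SE 0.30, limma adjusted p = 1.25e-05), and the exact two-sided permutation p was 0.00794, the smallest possible. 3 further small RNA genes with the same kind of pattern were the predicted genes with the largest falls in fold change that did not overlap, although none of them was an SDEG. Gm26461 also resembles 7SL and stood at 2.7, 2.8, 1.4, 1.7 and 2.2 in sham animals and at 0.3, 0.8, 0.8, 0.7 and 0.8 at 14 dpi (log2 fold change -1.16, limma adjusted p = 0.17). Gm26315, at chr2:7076094-7076414 (mm10), resembles 7SK, which holds the elongation factor P-TEFb inactive, and stood at 8.8, 8.2, 3.8, 5.1 and 4.4 against 2.1, 2.4, 2.1, 1.6 and 1.2 (log2 fold change -1.42, adjusted p = 0.17). Gm24447, the other 7SK-like gene, at chr15:93234363-93234700, stood at 4.4 to 7.0 in sham animals and at 1.0 to 3.5 at 14 dpi (log2 fold change -1.05). All 4 genes were thus lower in each of the 5 animals at 14 dpi than in each sham animal.

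Each of these genes shares sequence with an abundant parent gene, so reads from the shared part may be assigned to either copy, which was not tested. The sequence of Gm26315 is shown to make this visible. It was read from GENCODE M21 transcripts (GRCm38), and capitals mark bases that lie in a 31-base word also found in the parent, Rn7sk.
Gm26315 (bases 1 to 300): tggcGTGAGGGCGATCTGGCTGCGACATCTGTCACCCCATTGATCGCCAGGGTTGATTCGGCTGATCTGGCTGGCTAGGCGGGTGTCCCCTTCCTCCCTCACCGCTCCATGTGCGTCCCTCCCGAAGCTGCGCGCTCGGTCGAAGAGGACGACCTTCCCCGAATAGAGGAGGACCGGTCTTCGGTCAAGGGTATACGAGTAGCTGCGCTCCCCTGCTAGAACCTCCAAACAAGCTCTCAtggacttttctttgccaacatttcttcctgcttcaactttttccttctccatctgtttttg
Rn7s6 held 143 of its 261 words (54.8%) in common with the 7SL gene Rn7s1. Gm26461 shared 79 of 260 words (30.4%) with Rn7s1. Gm26315 and Gm24447 shared 70.4% and 68.5% of their words with Rn7sk. The last stretch of the printed sequence, at the 3' end, is in lower case and holds no 31-base word of Rn7sk.

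The parents were far more abundant. Rn7s1 stood at 26315.8, 24690.5, 15100.2, 19759.1 and 15445.6 in sham animals and at 14533.0 to 15143.0 at 14 dpi (log2 fold change -0.41, SE 0.25, limma adjusted p = 0.52). Its groups overlapped, as did those of Rn7sk, at 8392.0 to 14417.6 against 8613.5 to 10347.4. Relative to Rn7s1, Rn7s6 was also lower in each animal at 14 dpi than in each sham animal. Whether it reflects reads of the Rn7s6 locus or a different split of 7SL reads between copies was not tested, and the value of Rn7s6 is uncertain for that reason. At the other times Rn7s6 averaged 2.98 ± 1.70 (SD, n = 4) at 4 dpi, 0.42 ± 0.18 (n = 5) at 7 dpi, 3.74 ± 1.79 (n = 5) at 28 dpi and 1.94 ± 1.03 (n = 5) at 42 dpi. The level at 14 dpi was lower than at 28 dpi by a log2 difference of -2.56 (limma adjusted p = 7.22e-06) and differed from that at 7 dpi by -0.42, which was not an SDEG.

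**Figure D1:**
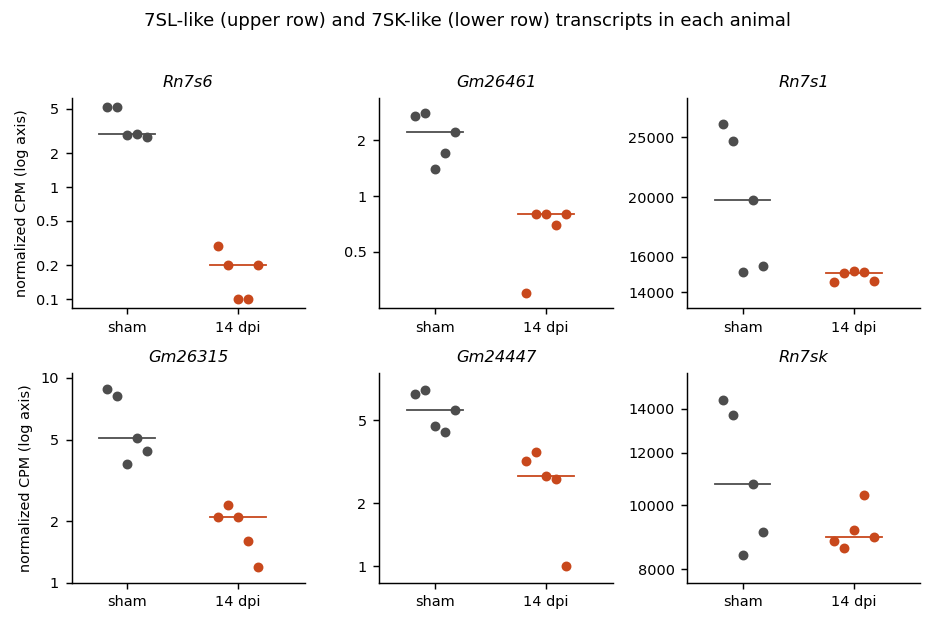
Normalized CPM on a log axis in each of the 5 sham animals and the 5 animals at 14 dpi, with a line at the group median, for 2 small 7SL-like genes and the 7SL gene Rn7s1 (upper row) and for 2 small 7SK-like genes and Rn7sk (lower row). The 4 small copies lay lower at 14 dpi without overlap, whereas Rn7s1 and Rn7sk overlapped between groups.

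In the small noncoding RNA list, which includes Rn7s6, more genes were lower than higher. Of 53 measured members of the list of 7SL, Y, 7SK, RNase, small nuclear, small nucleolar and microRNA host genes, 10 were lower and 5 higher at an unadjusted p under 0.05, with a median log2 fold change of -0.20. The 7SL, Y, 7SK and RNase members held 5 of these 10, with 5 of 9 lower, Rn7s6 among them. Over the list, 2 were higher without A12-2 and 3 without A5-3, A6-2 or A6-3, and 25 were lower under the same-sum scaling, 24 with the ribosomal RNA covariate, 19 with the 10 animals fitted alone and 17 with array weights. Rny3, a Y RNA that binds the Ro autoantigen, stood at 3.0, 5.8, 9.8, 9.7 and 5.2 in sham animals and at 2.3, 1.5, 1.9, 3.3 and 3.3 at 14 dpi (log2 fold change -1.22, SE 0.37, limma adjusted p = 0.38), with overlap through sham animal A11-1. Mir22hg, the host transcript of miR-22, went the other way, from 4.2 to 5.3 in sham animals to 5.3 to 8.9 at 14 dpi (log2 fold change 0.50).

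Microglial genes were mostly on the higher side. Of 29 measured genes of the homeostatic microglia list, 17 were higher and 0 lower at an unadjusted p under 0.05, against 6.25% higher over all genes, 28 had a positive log2 fold change, and 6 lay higher without overlap. The median log2 fold change was 0.28. The count of higher genes was 16 without sham animal A11-1, 16 without animals A5-3 and A6-3, and 16 after the length and GC correction. Under the same-sum scaling 1 was higher and 1 lower, and the median was 0.02, above the median of all genes by 0.29. None of the 29 was an SDEG (smallest limma adjusted p = 0.38). By role, 6 of 10 receptors and sensors, 6 of 9 surface and secreted proteins, 3 of 5 transcription factors and 2 of 5 cytoskeletal and signalling genes were higher.

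Cx3cr1, the microglial receptor for the neuronal chemokine fractalkine, stood at 12.9, 14.0, 14.3, 15.0 and 13.9 in sham animals and at 18.2, 16.5, 19.7, 19.8 and 17.5 at 14 dpi (log2 fold change 0.37, SE 0.11, limma adjusted p = 0.38). Siglech, a sialic acid-binding lectin of microglia, stood at 3.8, 3.4, 3.8, 3.9 and 3.0 against 4.7, 5.5, 4.4, 5.6 and 5.2 (0.45, SE 0.13). Neither gene overlapped between groups. Lag3, an inhibitory receptor that binds MHC class II, stood at 0.6 to 0.9 in sham animals and at 2.2, 2.1, 1.1, 1.5 and 0.9 at 14 dpi (0.74, SE 0.20), with the lowest animal at 14 dpi equal to the highest sham animal. P2ry12, the purinergic receptor of surveying microglia, stood at 8.5 to 10.8 against 9.8 to 11.6 (0.21, limma adjusted p = 0.49).

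Among 38 measured genes of activated microglia and the phagocyte lysosome, 14 were higher and 0 lower, 35 had a positive log2 fold change, and 5 did not overlap. The median log2 fold change was 0.30. The count of higher genes was 11 without A11-1, 15 without A5-3 and A6-3, and 12 after the length and GC correction, but 2 under the same-sum scaling, where the median was 0.04. Ctss, the lysosomal protease cathepsin S, stood at 16.1, 16.9, 19.7, 18.6 and 18.7 in sham animals and at 35.7, 27.5, 29.4, 37.9 and 25.4 at 14 dpi (log2 fold change 0.76, SE 0.21, adjusted p = 0.38). Mpeg1, a pore-forming protein of phagocytes, stood at 5.8, 7.5, 5.4, 7.5 and 6.9 against 9.6 to 13.4 (0.76, SE 0.22, adjusted p = 0.38). Both genes were higher in each animal at 14 dpi than in each sham animal. Clec7a, the beta-glucan receptor dectin-1, was nearly absent in sham animals at 0.0 to 0.3 and stood at 2.2, 0.3, 1.5, 1.5 and 0.7 at 14 dpi (1.25, SE 0.40), and animal A5-3 was the one that reached only the sham level. Ly86, a partner of the Toll-like protein CD180 and not in this list, had no overlap at 1.6 to 2.6 against 3.0 to 5.0 (0.65, SE 0.19). Ctss passed the SDEG limits when only the 10 animals of both groups were fitted.

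In the complement list of 28 measured genes, 6 were higher and 1 lower (1 and 5 under the same-sum scaling), with a median log2 fold change of 0.07. With 1 animal left out the median was 0.06 (A5-4) to 0.14 (A12-2), and without A5-3 and A6-3 it was 0.14. Under the same-sum scaling it turned to -0.17, where the median of all genes was -0.28. Of the 6 initiators of the pathways 3 were higher. C1qa, a chain of the C1q molecule that starts the classical pathway, stood at 8.9, 10.2, 9.8, 11.6 and 11.3 in sham animals and at 12.5 to 19.1 at 14 dpi (log2 fold change 0.64, SE 0.22, limma adjusted p = 0.38). C1qc, a second chain of it, stood at 7.0, 6.7, 10.7, 8.5 and 8.7 against 13.7, 11.8, 14.8, 14.9 and 11.4 (0.66, SE 0.22). The third chain, C1qb, overlapped in 1 pair of values, with 6.6 to 10.9 against 10.3 to 13.9 (0.50, SE 0.22). All 3 chains of C1q were higher at an unadjusted p under 0.05, a limit that C1qb missed without A11-1 and after the length and GC correction. C4b, the complement component that C1 cleaves, varied widely at 4.3 to 15.1 against 11.2 to 22.7 (1.01, SE 0.37). Itgax, a subunit of complement receptor 4, was listed at 0.0 or 0.1 in every sham animal and at 1.6, 0.0, 1.4, 1.4 and 0.6 at 14 dpi, again with A5-3 at the sham level.

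Fc gamma receptors and their ITAM adaptors, which couple antibody-coated targets to phagocytosis, had 4 of 14 measured members higher and 0 lower, with a median log2 fold change of 0.22. Under the same-sum scaling 0 were higher or lower and the median was 0.02. Fcgr2b, the inhibitory receptor, stood at 1.7, 1.9, 2.0, 1.5 and 1.4 in sham animals and at 2.8, 3.0, 2.4, 2.8 and 3.1 at 14 dpi (0.60, SE 0.19). Fcgr3, an activating receptor, stood at 2.0 to 3.3 against 3.4 to 4.5 (0.58, SE 0.19). Both receptors had no overlap. Fcer1g, the shared signalling chain, stood at 0.9 to 1.5 against 1.3 to 2.6 (0.71, SE 0.24) and overlapped through A6-3.

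Antigen presentation followed the same direction. Of 22 measured genes of the MHC list, 10 were higher and 0 lower, 21 had a positive log2 fold change, and the median was 0.33. By role, 4 of 8 class I genes, 1 of 4 class II genes and 5 of 10 processing genes were higher. The count of higher genes was 9 without A11-1, 9 without A5-3 and A6-3, and 8 after the length and GC correction, but 1 under the same-sum scaling, where 1 was lower and the median was 0.06. B2m, the invariant chain of MHC class I, stood at 22.1, 26.5, 35.6, 30.4 and 33.7 in sham animals and at 43.5, 42.2, 44.2, 53.6 and 41.0 at 14 dpi (log2 fold change 0.60, SE 0.14, limma adjusted p = 0.2). Psmb8, a catalytic subunit of the immunoproteasome that cuts peptides for class I, stood at 0.9, 0.3, 0.7, 0.9 and 0.7 against 1.5, 1.9, 1.3, 1.8 and 1.3 (0.80, SE 0.20, adjusted p = 0.33). The groups did not overlap for either gene, and B2m passed the SDEG limits when animals were weighted by their variability. H2-D1, a classical class I heavy chain, stood at 28.1 to 38.7 against 37.0 to 44.2 (0.33, SE 0.10). Heavy-chain genes are close copies of each other, so their values are uncertain where reads match several of them. Cd74, the invariant chain of class II, stood at 0.4 to 0.7 against 0.6 to 1.9 (0.68, SE 0.24).

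**Figure D2:**
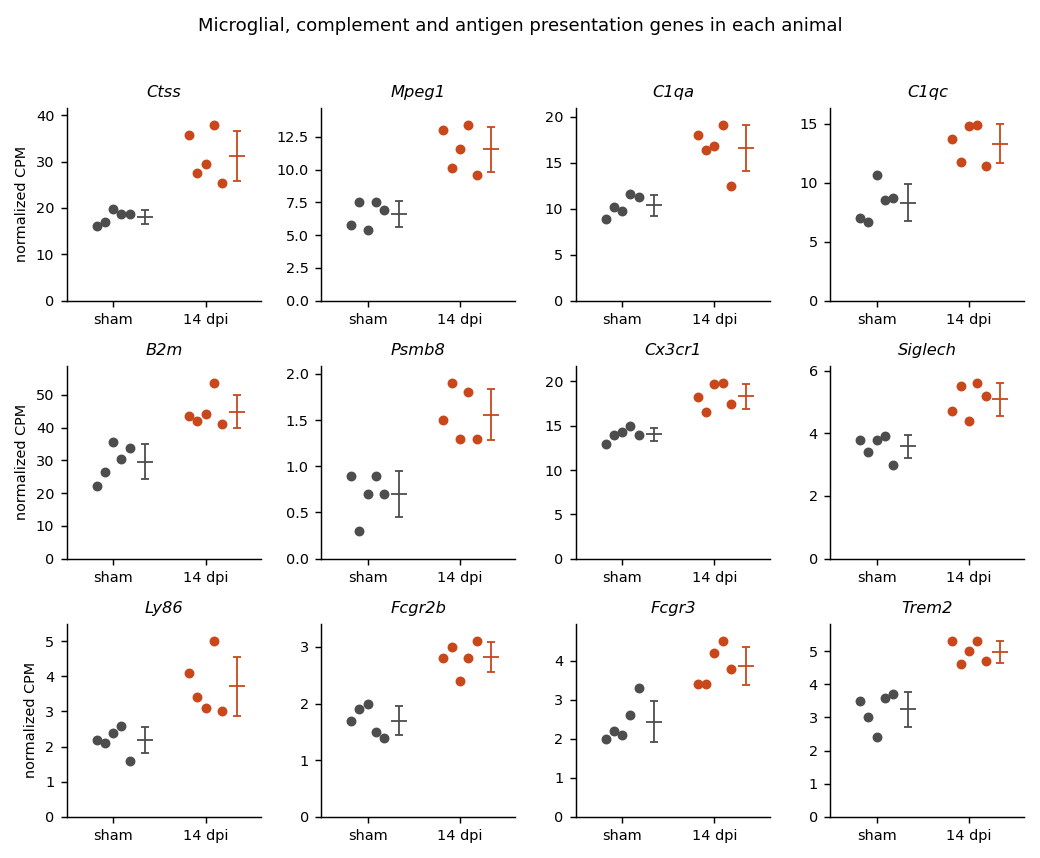
Normalized CPM of 12 genes in each of the 5 sham animals and the 5 animals at 14 dpi, with the group mean and SD beside the points. In all 12 panels each animal at 14 dpi lay higher than each sham animal.

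Of 39 measured interferon-stimulated genes, 1 was higher and 1 lower at an unadjusted p under 0.05. The count of higher genes was 4 without A12-1, 3 without A6-3, 2 without A11-1 or A12-3 and 4 with array weights. In all 10 animals the median log2 fold change was 0.11, or -0.09 under the same-sum scaling. Ifi27 was higher by a log2 fold change of 0.46 (SE 0.15), with overlap, and Gbp7, a guanylate-binding protein, stood at 4.7 to 5.9 against 4.1 to 5.0 (-0.23, SE 0.11).

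Upstream sequences of 3 of the higher genes are shown because they hold short motifs that bear on myeloid and interferon-responsive genes. GAGGAA is the core bound by the myeloid factor PU.1, and the GAAA repeat, a pair of GAAA with any 2 bases between, is bound by interferon-regulatory factors. The windows are the 250 bases before the RefSeq start (GRCm38.p6), given in gene direction, with motif matches on either strand in capitals.
Ctss (chr3:95526536-95526785, plus strand): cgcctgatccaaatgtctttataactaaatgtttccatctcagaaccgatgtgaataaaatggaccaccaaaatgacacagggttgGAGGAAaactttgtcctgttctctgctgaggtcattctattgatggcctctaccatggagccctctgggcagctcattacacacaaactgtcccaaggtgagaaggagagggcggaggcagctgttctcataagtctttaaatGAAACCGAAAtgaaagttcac
C1qc (chr4:136892915-136893164, minus strand): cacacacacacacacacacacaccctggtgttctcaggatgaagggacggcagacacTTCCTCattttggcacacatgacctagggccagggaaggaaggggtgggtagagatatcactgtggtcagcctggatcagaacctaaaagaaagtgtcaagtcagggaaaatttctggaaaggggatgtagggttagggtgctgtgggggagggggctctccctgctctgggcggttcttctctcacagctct
B2m (chr2:122147437-122147686, plus strand): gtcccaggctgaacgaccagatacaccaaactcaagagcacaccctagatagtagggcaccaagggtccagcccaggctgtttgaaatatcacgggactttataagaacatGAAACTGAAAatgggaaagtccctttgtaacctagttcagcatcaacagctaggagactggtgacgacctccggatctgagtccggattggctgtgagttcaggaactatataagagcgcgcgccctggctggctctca
Ctss held 1 match of each motif, C1qc a single GAGGAA on the opposite strand, where it reads TTCCTC, and B2m a single GAAA repeat. The Psmb8 window held neither. GAGGAA occurred in 23.3% of all 32851 promoter windows and in 12 of 28 (42.9%) windows of 21 homeostatic microglia genes, in 33.3% of activated microglia, 31.6% of complement, 30.3% of interferon-stimulated, 15.4% of oligodendrocyte precursor and 14.3% of MHC windows. The GAAA repeat occurred in 3.0% of all windows, in 3 of 21 (14.3%) windows of 18 MHC genes, in 16 of 33 (48.5%) windows of 28 interferon-stimulated genes, and in 7.7% of activated microglia, 5.3% of complement, 3.6% of homeostatic microglia and 0.0% of oligodendrocyte precursor windows. Some genes have several windows. A match describes letters in a window and is no evidence of binding.

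The 13 genes that the study names for its early inflammatory phase were all measured, and 12 of them were higher at 14 dpi, with a median log2 fold change of 0.64. The study chose this list on these samples, so its direction is not independent evidence. The exception was Grn, the lysosomal growth factor progranulin, at 12.8 to 14.3 against 14.2 to 16.5 (0.20, limma adjusted p = 0.6). Trem2, the lipid receptor of phagocytes, stood at 3.5, 3.0, 2.4, 3.6 and 3.7 in sham animals and at 5.3, 4.6, 5.0, 5.3 and 4.7 at 14 dpi (0.56, SE 0.21). The count of higher genes was 11 without A11-1, 12 without A5-3 and A6-3, and 11 after the length and GC correction, but 2 under the same-sum scaling, where the median was 0.36.

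The summed markers of other immune cells overlapped between groups. The 2 measured markers of neutrophils and monocytes of 8 listed, Ccr2 and Ly6c2, summed to 1.4 to 2.2 in sham animals and to 1.2 to 1.7 at 14 dpi. The 4 measured markers of perivascular macrophages of 6 summed to 5.1 to 8.3 against 5.1 to 6.9, and 5 of 10 lymphocyte markers to 3.8 to 5.3 against 3.6 to 4.4. None of these 11 genes was higher or lower at an unadjusted p under 0.05.

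Astrocyte genes were mixed. Of 29 measured reactive astrocyte genes, 5 were higher and 0 lower (3 higher without A5-4, 1 higher and 4 lower under the same-sum scaling), while the 4 intermediate filament genes held none of the 5. The median log2 fold change was 0.12, or -0.07 under the same-sum scaling. With 1 animal left out it was 0.13 (A6-2) to 0.23 (A11-1), and without A5-3 and A6-3 it was 0.25. Serpina3n, a secreted protease inhibitor, stood at 17.2, 20.5, 24.3, 22.4 and 20.8 in sham animals and at 28.2, 24.9, 31.8, 33.4 and 26.2 at 14 dpi (0.45, SE 0.13), without overlap. Gfap, the classical filament of reactive astrocytes, stood at 236.0, 130.5, 125.9, 303.3 and 116.9 in sham animals and at 141.4 to 229.6 at 14 dpi (0.11, limma adjusted p = 0.87), with a spread among sham animals wider than the difference. Of 30 homeostatic astrocyte genes, 1 was higher, Apoe, the main lipoprotein of the cord, which microglia also express, at 315.6 to 472.5 against 472.2 to 605.6 (0.38, SE 0.14). In that list 3 were higher and 2 lower without A12-1. Under the same-sum scaling 0 were higher and 7 (23.3%) lower, against 26.5% lower over all genes.

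Of 26 measured genes of oligodendrocyte precursors, 8 were lower and 1 higher at an unadjusted p under 0.05, against 5.36% lower over all genes, and 7 of the 8 were among the 14 receptors and matrix proteins. The median log2 fold change was -0.14. The count of lower genes was 7 without A5-3 and A6-3, and 5 after the length and GC correction, which took the median to -0.07. With 1 animal left out it was 4 (A12-2) to 10 (A12-1), with 5 without A5-4, A6-2 or A11-1, and under the same-sum scaling it was 14. Cacng4, an auxiliary subunit of AMPA receptors, stood at 6.5, 7.0, 6.3, 6.6 and 7.0 in sham animals and at 5.7, 4.8, 5.9, 4.5 and 5.6 at 14 dpi, without overlap (-0.31, SE 0.09, limma adjusted p = 0.38). Cspg4, the NG2 proteoglycan, stood at 10.7 to 15.2 against 8.6 to 11.3 (-0.33, SE 0.12). Gpr17, a receptor of precursors that are about to differentiate, stood at 24.5 to 38.5 against 19.5 to 28.5 (-0.34, SE 0.11).

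Of 40 measured genes of mature oligodendrocytes, 4 were lower and 1 higher, 0 of the 16 myelin proteins being among them, and the 5 defining markers summed to 5126.4 to 7800.6 in sham animals and to 5224.2 to 6508.7 at 14 dpi. Ugt8a, the enzyme that makes the myelin lipid galactosylceramide, stood at 205.8, 154.6, 156.4, 214.3 and 166.1 against 137.1, 151.7, 148.6, 145.0 and 140.6 (-0.30, SE 0.09), and Anln, a septin-binding protein of myelin, at 57.2 to 90.5 against 51.0 to 56.2 (-0.34, SE 0.13). Both lay lower without overlap. Ptgds, which makes prostaglandin D2, was the gene on the higher side, at 171.4 to 291.4 against 261.2 to 320.1 (0.32, SE 0.12, and 0.21 without A11-1). After the length and GC correction 9 of the 40 genes were lower and 0 higher. With 1 animal left out, 1 (A12-2) to 8 (A11-4) were lower, with 2 without A5-1, and under the same-sum scaling 22 were.

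Of 43 synaptic vesicle and release genes, 6 were lower and 1 higher, with a median log2 fold change of -0.10, and 5 of the 6 belonged to the 24 release genes. Unc13a, which primes vesicles for fusion, stood at 120.5, 115.9, 119.4, 118.6 and 122.5 in sham animals and at 105.6, 101.2, 92.6, 94.3 and 111.4 at 14 dpi (-0.24, SE 0.07, limma adjusted p = 0.38). Its groups did not overlap and its sham values were tight. After the length and GC correction 1 of the 43 was lower and 1 higher, and the median was -0.02. When 1 animal was left out the count of lower genes was 1 (A5-4 or A11-4), 2 (A6-2 or A12-2), 3 (A5-3 or A11-1), 4 (A12-3), 5 (A5-1) or 9 (A6-3 or A12-1), and under the same-sum scaling it was 27.

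Axon guidance genes, which steer growing fibres, had 9 of 64 measured members lower and 1 higher, with a median log2 fold change of -0.09. By role, 3 of 20 semaphorins, 1 of 11 semaphorin receptors and 5 of 33 netrin, slit and ephrin pathway genes were lower. Sema5a, a semaphorin that can attract or repel axons, stood at 54.6, 47.7, 33.3, 50.7 and 43.5 in sham animals and at 37.5, 34.8, 28.7, 37.8 and 32.9 at 14 dpi (-0.40, SE 0.13). Sema6d stood at 98.5 to 114.7 against 88.8 to 102.5 (-0.18, SE 0.05), and Epha6, an ephrin receptor, at 22.4 to 32.1 against 20.4 to 24.5 (-0.29, SE 0.11). The count of lower genes was 4 without A11-1, 5 without A5-1 or A5-3, 3 after the length and GC correction and 33 under the same-sum scaling.

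Among growth inhibitors and components of the perineuronal net, the matrix that stabilises synapses on adult neurons, 6 of 37 were lower and 0 higher, 5 of them among 21 net components. Has3, a hyaluronan synthase, stood at 10.9, 8.3, 9.0, 9.2 and 8.5 in sham animals and at 7.1, 7.2, 7.1, 8.0 and 7.9 at 14 dpi, without overlap (-0.28, SE 0.10). Ncan, the proteoglycan neurocan, stood at 74.5 to 96.3 against 58.9 to 81.6 (-0.24, SE 0.08), and Ptprf, the receptor LAR, which can bind chondroitin sulfate, at 37.1 to 53.0 against 36.3 to 44.5 (-0.26, SE 0.10). The count of lower genes was 3 without A11-1 or A6-2, 17 under the same-sum scaling and 4 after the length and GC correction, which also moved the median from -0.05 to 0.00068.

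**Figure D3:**
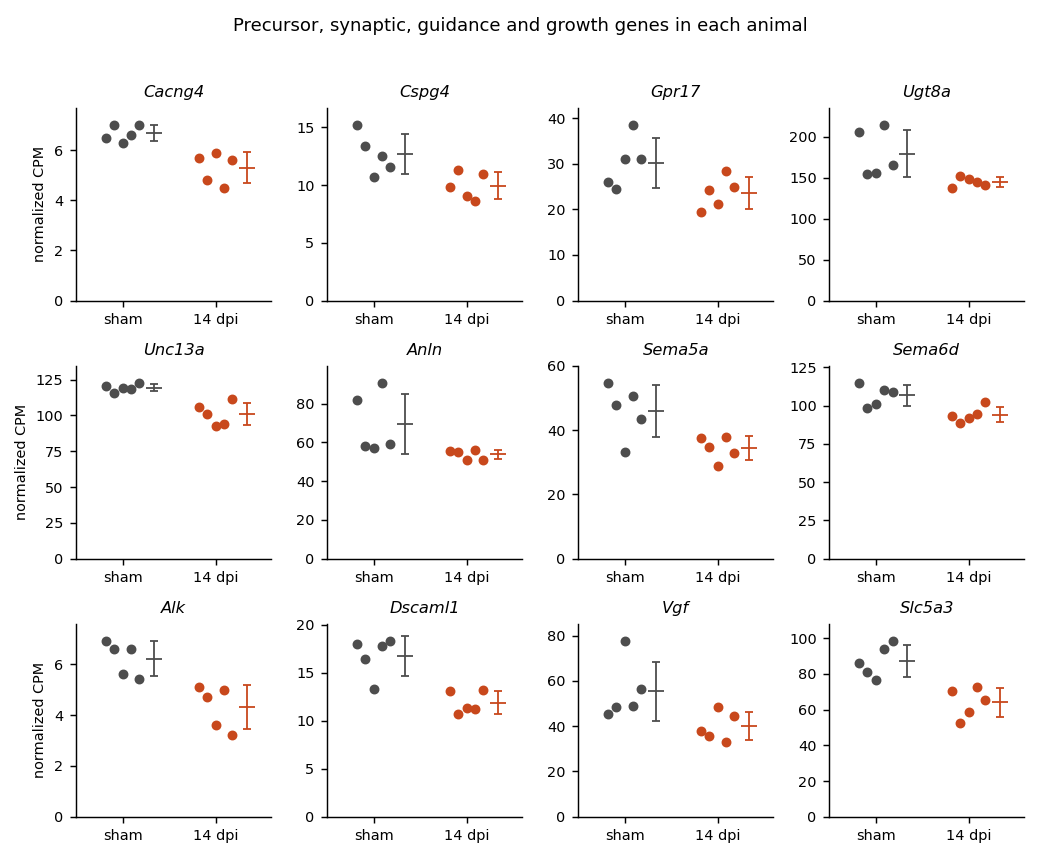
Normalized CPM of 12 genes in each of the 5 sham animals and the 5 animals at 14 dpi, with the group mean and SD beside the points. Cacng4, Ugt8a, Unc13a, Anln, Alk, Dscaml1 and Slc5a3 lay lower at 14 dpi without overlap, and the other 5 genes overlapped.

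Neurotrophins and growth-associated genes had 6 of 51 members higher and 6 lower, counts that were 1 and 5 without A11-1, 2 and 4 without A5-3, 3 and 4 without A5-4 and 7 and 3 without A12-2. Under the same-sum scaling they were 0 and 15 (29.4%), where 26.5% of all genes were lower. 5 of the 6 higher genes were among 23 growth cone and regeneration genes. Gdf10, a growth factor of the TGF-beta family, stood at 1.1, 1.0, 0.4, 0.7 and 1.0 in sham animals and at 0.1, 0.1, 0.3, 0.8 and 0.0 at 14 dpi (log2 fold change -0.88, SE 0.24), with overlap through animal A6-2 at 14 dpi. Alk, a receptor tyrosine kinase, stood at 6.9, 6.6, 5.6, 6.6 and 5.4 against 5.1, 4.7, 3.6, 5.0 and 3.2 (-0.49, SE 0.14) without overlap. Vgf, a secreted neuropeptide precursor induced by neurotrophins and activity, stood at 45.3, 48.3, 77.5, 49.1 and 56.5 against 38.0, 35.8, 48.4, 33.2 and 44.7 (-0.45, SE 0.13). Vgf was also the only one of 34 immediate early and activity-regulated genes past an unadjusted p under 0.05, while 0 of the 19 factors among them were. Without A5-1, 2 of the 34 were higher and the median turned from -0.03 to 0.05. Under the same-sum scaling 9 of the 34 (26.5%) were lower, the same share as over all genes (26.5%).

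The 16 genes that the study names for its late phase held 0 higher and 0 lower at 14 dpi, with a median log2 fold change of -0.02 (smallest limma adjusted p = 0.50). The list joins genes named for either direction, so its median describes no common change. With array weights 2 of the 16 were lower, and under the same-sum scaling 5 (31.2%), where 26.5% of all genes were lower. Sema6a stood at 27.5 to 37.1 in sham animals and at 27.3 to 40.9 at 14 dpi (0.09), Ntng2, the netrin-G2 cue, at 6.8 to 8.0 against 6.5 to 13.1 (0.21, or 0.07 without A5-4), and Tgfb1 at 1.4 to 2.2 against 1.1 to 2.5 (-0.09). These growth-related genes overlapped fully between groups. Gdf7, a bone morphogenetic protein, stood at 1.6 to 3.1 in sham animals and at 2.0, 11.3, 1.4, 1.6 and 16.5 at 14 dpi (0.78, limma adjusted p = 0.56). Its 2 high animals, A5-3 and A6-3, were those with the high ribosomal RNA, and without them the log2 fold change was -0.31. Whether ribosomal RNA had a part in these 2 values was not tested.

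Of 30 transmitter genes 0 were higher and 1 lower, of 36 interneuron transcription factors 0 and 1, and of 20 neuropeptides 2 and 1. Without A12-1, 4 transmitter genes were higher, and without A5-3, A6-2, A11-1 or A11-4, 0 neuropeptides were. The lower counts under the same-sum scaling were 8 transmitter genes (26.7%), 11 interneuron factors (30.6%) and 1 neuropeptide (5.0%), against 26.5% over all genes. The 11 defining markers of spinal neurons summed to 2283.0 to 2795.4 in sham animals and to 2529.6 to 2665.8 at 14 dpi. Motor neuron markers summed to 141.1, 145.3, 315.4, 214.9 and 80.7 in sham animals and to 136.3, 237.3, 437.0, 171.8 and 278.9 at 14 dpi. The 15 cholinergic and motor neuron genes had a median log2 fold change of 0.28 with 0 past the limit, with group ranges that overlapped. Zfhx3, a homeobox factor of spinal interneurons, stood at 33.4 to 46.9 against 28.4 to 38.7 (-0.32, SE 0.13).

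3 large lists of short housekeeping genes had many members on the higher side. Of 77 nuclear genes of oxidative phosphorylation, 39 were higher and 0 lower (median log2 fold change 0.29), of 80 cytosolic ribosomal protein genes 46 and 0 (0.32), and of 34 proteasome subunits 18 and 0 (0.21). Without sham animal A11-1 these counts of higher genes were 2, 4 and 5, and after the length and GC correction 23, 29 and 10, and the medians without A11-1 were 0.17, 0.19 and 0.14. Other animals moved the counts too, which without A6-2 were 19, 17 and 12, without A5-3 17, 24 and 10, and without A12-1 63, 60 and 24. Under the same-sum scaling the medians were -0.01, 0.03 and -0.09, above the median of all genes by 0.27, 0.31 and 0.19, and 0 genes of the 3 lists were higher. Ndufa5, a subunit of complex I, stood at 13.9, 21.8, 33.7, 23.3 and 29.2 in sham animals and at 33.0, 34.8, 34.2, 34.1 and 35.5 at 14 dpi (0.54, SE 0.19), and Rps18, a protein of the small ribosomal subunit, at 25.3, 34.1, 42.8, 32.9 and 43.0 against 42.8 to 50.9 (0.43, SE 0.14). In both genes A11-1 was the lowest animal. Without A11-1 their log2 fold changes were 0.36 and 0.32.

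The trend ran over the whole range of gene lengths. Among genes with a mean value of at least 1, the 2573 shortest, of 57 to 1756 bases, had a median log2 fold change of 0.12 and were higher in 17.4% and lower in 2.6% of cases at an unadjusted p under 0.05. The 2572 longest, of 5664 to 123179 bases, had a median of -0.10 and were higher in 0.7% and lower in 16.0%. The difference of these bins within an animal, relative to the sham mean, was -0.25 in A11-1, -0.10 in A11-4, 0.25 in A12-1, -0.0024 in A12-2 and 0.13 in A12-3, and 0.11 to 0.29 at 14 dpi. Animals A11-1 and A11-4 were at the low end, and A12-1 and A12-3 lay within the range of the 14 dpi animals. Lists made of short genes, such as ribosomal proteins (median 1054 bases), and of long genes, such as axon guidance (median 5625 bases), lie at opposite ends of this trend. The median length was 3282 bases in the homeostatic microglia list, 2335 in the activated microglia list, 2277 in the early list and 2094 in the MHC list, against 3233 over all genes, and the length and GC correction took the median log2 fold changes of these 4 lists to 0.27, 0.23, 0.55 and 0.22.

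**Figure D4:**
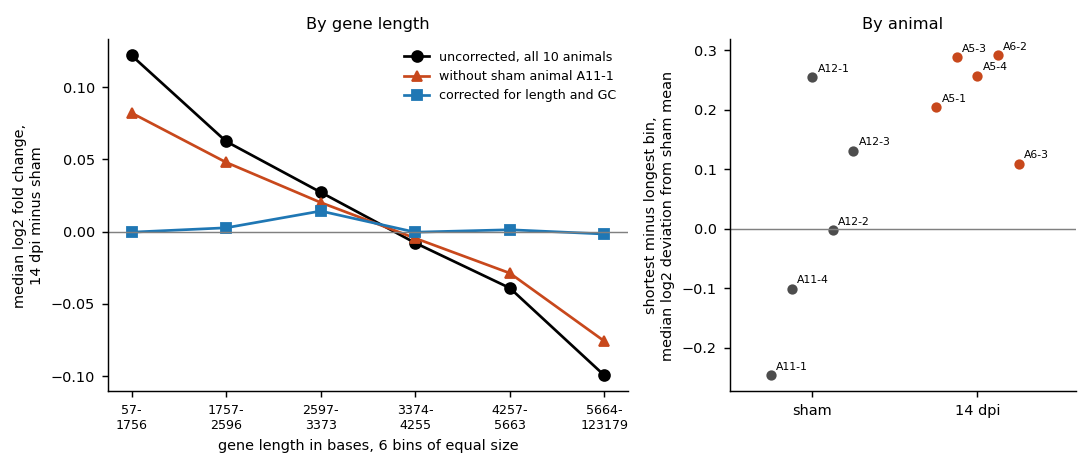
Left, median log2 fold change (14 dpi minus sham) in 6 bins of gene length, uncorrected, without sham animal A11-1 and after the length and GC correction. Right, the difference between the shortest and the longest bin in each animal as a median log2 deviation from the sham mean, where A11-1 lay lowest at -0.25 and the 5 animals at 14 dpi lay at 0.11 to 0.29.

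Genes encoded by the mitochondrial genome were higher as well. Of 32 measured, 20 were higher and 0 lower, 9 of them without overlap, with a median log2 fold change of 0.52, and the count of higher genes was 16 without A11-1, 17 without A5-3 and A6-3, and 21 after the length and GC correction, but 4 under the same-sum scaling, where 2 were lower and the median was 0.26. mt-Nd2, a core subunit of complex I, stood at 266.2, 447.6, 554.5, 404.4 and 457.2 in sham animals and at 611.0, 781.6, 700.6, 560.7 and 768.2 at 14 dpi (0.71, SE 0.21). mt-Cytb, the cytochrome b of complex III, stood at 571.6 to 1307.2 against 1428.5 to 1715.1 (0.66, SE 0.22). mt-Nd4l, another complex I subunit, stood at 43.0 to 63.8 against 66.9 to 107.3 (0.64, SE 0.16). A11-1 was the lowest animal for mt-Nd2, and none of the 3 genes overlapped between groups. The predicted genes Gm28661 and Gm10221, the first at 1117.6 to 3163.6 in sham animals and 3179.8 to 3689.1 at 14 dpi, were on the same side, with log2 fold changes of 0.38 and 0.29 without A11-1.

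In the remaining lists the counts were small. Of 61 histone genes, 6 were lower and 1 higher (1 and 1 without A5-3 and A6-3). With 1 animal left out, 2 (A5-1) to 8 (A12-3) histone genes were lower. Of 29 heat shock and chaperone genes 6 were lower and 0 higher, and of 20 clock genes 3 lower and 1 higher (1 lower without A5-3 or A12-3, 0 higher without A12-1). Under the same-sum scaling 22 histone, 14 heat shock, 5 clock, 10 endothelial, 5 cell cycle, 8 cholesterol synthesis, 5 collagen and 11 glucocorticoid-responsive genes were lower and 0 higher. Pdia4, a disulfide isomerase of the endoplasmic reticulum, stood at 47.2, 40.3, 42.0, 47.7 and 44.5 in sham animals and at 33.2 to 39.8 at 14 dpi (-0.28, SE 0.09), without overlap. Without A5-3 and A6-3, 1 of the heat shock genes was lower and 1 higher, and with 1 animal left out 1 (without A12-3) to 8 (without A11-1) were lower, while 4 were higher without A12-1 and 2 without A12-3. Of 40 endothelial and pericyte genes 3 were lower and 0 higher (1 and 1 without A11-1), of 28 cell cycle genes 0 and 0 (2 higher without A12-2), of 23 cholesterol synthesis genes 0 lower and 3 higher (1 to 3 with 1 animal left out), of 24 collagen and fibroblast genes 0 lower and 4 higher (2 without A5-3), and of 20 glucocorticoid-responsive genes 1 lower and 0 higher (3 lower without A12-1, 0 without A5-1, A6-3, A11-4 or A12-2). The 2727 predicted genes had 125 (4.58%) lower and 55 (2.02%) higher. For these genes the counts were 201 (7.46%) lower and 35 higher after the length and GC correction, 73 and 29 without A11-1, and 592 (21.7%) and 9 under the same-sum scaling. Of 6 genes in the list of ribosomal RNA and transcripts linked to it, 5 were higher in the presence of A5-3 and A6-3 and 0 without them.

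**Figure D5:**
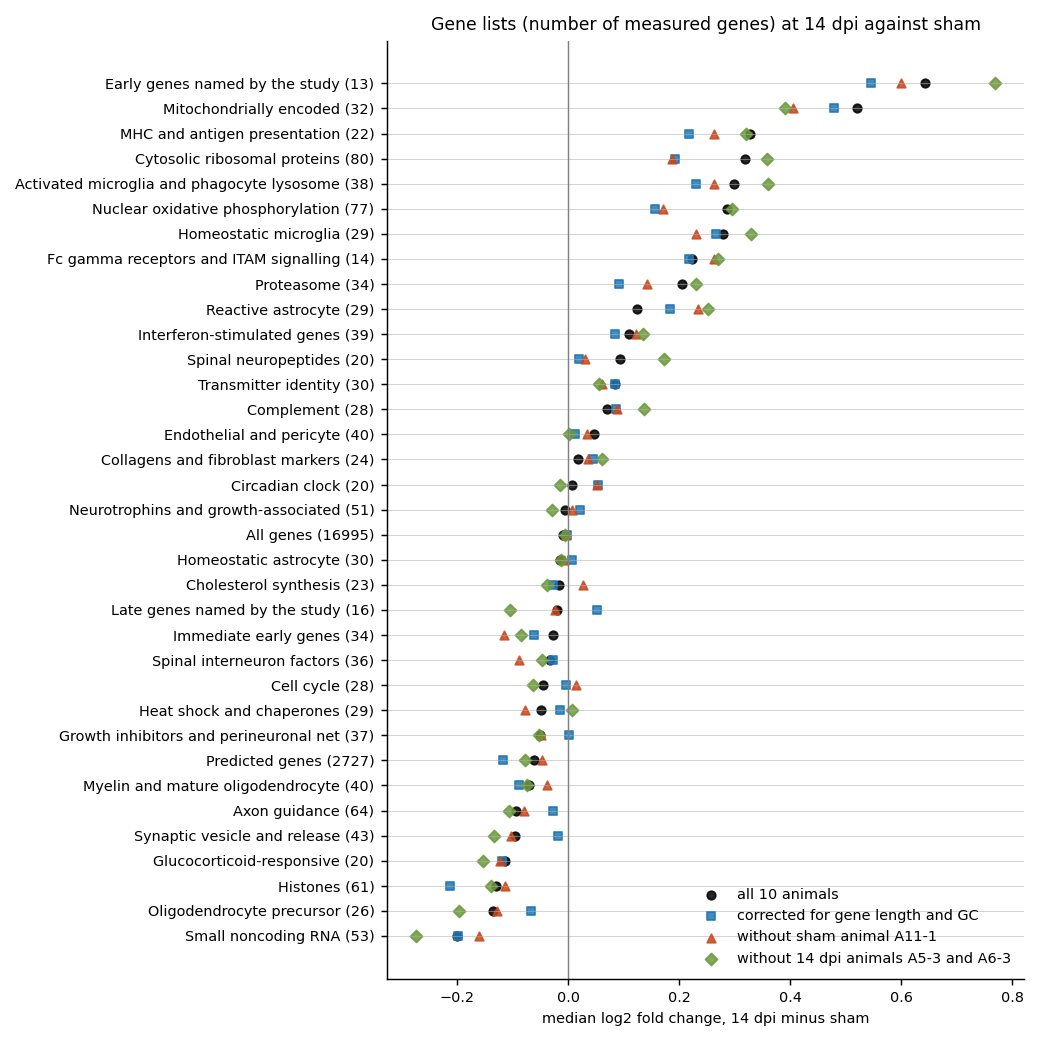
Median log2 fold change (14 dpi minus sham) of 34 gene lists and of all genes, with all 10 animals, after correction for gene length and GC content, without sham animal A11-1, and without the 14 dpi animals A5-3 and A6-3. The early genes and the microglial, Fc receptor and MHC lists stayed on the positive side in all 4 settings. So did the complement, interferon, reactive astrocyte, endothelial, transmitter, neuropeptide, collagen, oxidative phosphorylation, mitochondrially encoded, ribosomal protein and proteasome lists. Under the same-sum scaling, not drawn, the medians of the complement, interferon, reactive astrocyte, endothelial, transmitter, neuropeptide, clock, collagen, oxidative phosphorylation and proteasome lists had the opposite sign, with the median of all genes at -0.28. Relative to that median, the sign of the clock list alone among these 10 differed from that in the authors' scaling.

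Further genes on the higher side were named by their fold change alone or as markers. Htr3a, the ionotropic serotonin receptor, stood at 1.0, 1.1, 1.0, 0.8 and 0.7 in sham animals and at 1.7, 1.4, 2.0, 1.7 and 1.8 at 14 dpi (0.65, SE 0.19). Prl, the pituitary hormone prolactin, was listed at 0.2 in 1 sham animal and at 0.0 in the other 4, against 0.6, 0.5, 3.0, 1.8 and 0.9 at 14 dpi, and Gh, growth hormone, was at 1.0 to 1.6 in 3 of the 5 animals at 14 dpi and at 0.0 or 0.1 in the rest. The 4 measured pituitary markers of 6 summed to 2.5 to 4.3 in sham animals and to 4.5 to 10.1 at 14 dpi. Pituitary hormone genes are not markers of cord tissue, and where these transcripts came from was not tested. AY036118, a member of the ribosomal RNA list, had the largest log2 fold change of this group (2.44) at 2947.8 to 7427.7 against 7624.9 to 149678.3, with A5-3 and A6-3 highest, and its log2 fold change was 1.08 without them. Whether it shares reads with ribosomal RNA was not tested.

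On the lower side, Slc5a3, the inositol transporter that answers osmotic load, was not an SDEG (limma adjusted p = 0.20), at 86.1, 80.9, 76.4, 93.7 and 98.3 in sham animals and at 70.7, 52.7, 58.8, 72.5 and 65.4 at 14 dpi (-0.44, SE 0.10). Dscaml1, a neuronal adhesion molecule, stood at 13.3 to 18.3 against 10.7 to 13.2 (-0.47, SE 0.13), and Kcnj2, an inwardly rectifying potassium channel, at 10.5 to 12.8 against 5.9 to 10.4 (-0.46, SE 0.12). These 3 kept their direction after the length and GC correction, at -0.31, -0.38 and -0.40. Sspo, the glycoprotein SCO-spondin of the cerebrospinal fluid, stood at 1.7 to 3.0 against 0.9 to 1.6 (-0.61, SE 0.17). Cdh17 (-0.66), Ankrd37 (-0.61), Psrc1 (-0.54) and Xkr7 (-0.47) were low throughout, with group means of 0.64 to 1.74. Fam205a2 and Fam205a4 had identical values in all animals and count as 1 measurement (-0.45, or -0.27 without A5-1).

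At the neighbouring times, there were 0 SDEGs between 14 and 7 dpi (0.0% higher and 0.0% lower, smallest limma adjusted p = 0.65), with 1010 genes at an unadjusted p under 0.05, and the count was also 0 under quantile normalization, a pseudocount of 1 and a ribosomal RNA covariate. Between 14 and 28 dpi there were 2002 SDEGs, 718 (4.22%) higher and 1284 (7.56%) lower at 14 dpi. This comparison and that with sham share the 14 dpi animals. The SDEGs that were higher at 14 than at 28 dpi included 67 of 80 ribosomal protein genes, 58 of 77 oxidative phosphorylation genes and 12 of 34 proteasome genes, and those that were lower included 645 of 2727 predicted genes. Of the 16 late genes of the study, 7 were lower at 14 than at 28 dpi and 2 were higher, the metallothioneins Mt1 and Mt2. The study chose this list on these samples, 28 dpi included, so these counts are a description and not independent evidence of direction. Srgap1, a GTPase-activating protein of the slit pathway, was lower by a log2 difference of -0.78 (SDEG, adjusted p = 4.1e-05) and Notch3 by -0.79 (adjusted p = 7.7e-05).

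The immune lists differed in their counts of SDEGs between 14 and 28 dpi, where 4.22% of all genes were higher and 7.56% lower. Of 29 homeostatic microglia genes 1 was an SDEG, higher at 14 dpi, of 38 activated microglia genes 5 were higher and 1 lower, of 22 MHC genes 4 were higher and 2 lower, of 28 complement genes 0 were higher and 5 lower, and of the 14 Fc receptor and adaptor genes and the 13 early genes 0. Mpeg1 averaged 11.5 ± 1.7 (SD, n = 5) at 14 dpi and 11.4 ± 2.8 (n = 5) at 28 dpi, against 6.62 ± 0.97 (n = 5) in sham animals. Among the named genes that were SDEGs, Ctss averaged 31.2 ± 5.4 (n = 5) at 14 dpi and 20.8 ± 8.0 (n = 5) at 28 dpi (log2 difference 0.64, limma adjusted p = 0.015), and Psmb8 1.56 ± 0.28 (n = 5) and 0.76 ± 0.21 (n = 5) (0.71, adjusted p = 0.0057).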

How the data were processed

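RNA of single animals was sequenced, quantified by the authors with SALMON and Tximport against mm10, filtered for low expression and normalized with edgeR (R 3.4.1 and edgeR 3.14.0 in the submitters' processing notes). The deposited values are treated as a score: the authors' normalized CPM, rounded to 0.1. No counts were used, so depth is unknown and no counting interval is given; sums per animal were 714597 to 2256910. Columns holding the authors' fold changes and p-values were not used. Here log2(value + 0.5) was fitted with limma 3.58.1 (R 4.3.3, trend) with 6 group means over 29 animals, and p-values were adjusted by Benjamini-Hochberg. P-values measure the spread between animals. The animals at 14 dpi carry the label prefixes A5 and A6, and the sham animals A11 and A12. The labels do not say what the prefix stands for, and it cannot be told apart from group. The main fit and the permutation test treat animals of a prefix as independent. Animals are named as in the labels, and Ctrl was read as sham from the study's methods. Members and lists were chosen with earlier results of these data known. Genes named are SDEGs, the 12 genes (and 3 predicted genes) with the largest difference each way among those with an unadjusted p under 0.05, no overlap and a mean of at least 1, the 3 smallest p of each list, the study's early and late genes, and defining markers; any further gene was picked with its values known. The fit was tested on simulated data, and 23 alternatives were run. Some withheld items are not reported here.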

Additional observations from a re-analysis of the deposited data

Results flagged for a closer look

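In 130 groups of 5 animals, 12 held 1 animal far from the other 4, where chance gives about 1 in 20. For single genes these were Fam205a2 and Fam205a4, with identical values, at 3.6 in 14 dpi animal A5-1 (others 6.5 to 7.8), Gm10221 at 10 in sham animal A11-1 (18.8 to 21.7), Gm24447 at 1.0 in 14 dpi animal A6-3 (2.6 to 3.5), Gm26461 at 0.3 in 14 dpi animal A5-1 (0.7 to 0.8), Prl at 0.2 in sham animal A11-1 (0.0) and Psmb8 at 0.3 in sham animal A11-4 (0.7 to 0.9). For the median log2 deviation of a list's genes from the sham mean they were complement at 0.0154 in A5-3 and reactive astrocyte at 0.387 in A6-2, both at 14 dpi, and, among sham animals, neurotrophins at 0.0853 in A12-2, cholesterol synthesis at 0.0808 in A11-1 and the ribosomal RNA list at -0.211 in A12-2.

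Of 30 genes looked at, 14 differed between 14 and 28 dpi by limma's test of that difference, and 0 between 14 and 7 dpi. Over all genes, 4.22% were SDEGs higher and 7.56% lower at 14 than at 28 dpi. These 30 genes were picked for their 14 dpi values and the contrasts share the 14 dpi animals, so the count is a description. The log2 differences were positive, higher at 14 dpi, for Gm12338 (1.02), Gm28661 (0.95), Gm10221 (0.85), mt-Cytb (0.81), Htr3a (0.73), Psmb8 (0.71), Ly86 (0.67) and Ctss (0.64). They were negative for Rn7s6 (-2.56), Psrc1 (-1.09), Gm26461 (-0.82), Alk (-0.80), Dscaml1 (-0.745) and Cdh17 (-0.63).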

How the results depend on the processing

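Rn7s6 was an SDEG under all 23 alternatives. The number of SDEGs, 1 as reported, was 5 with array weights (B2m higher, Rn7s6, Gm26315, Gm24447 and Gm26461 lower), 4 under the same-sum scaling, 3 with the length and GC correction, and 2 each with only the 14 dpi and sham animals or with a ribosomal RNA covariate. When 1 animal was left out it was 1 to 1. Genes at an unadjusted p under 0.05, 1062 higher and 911 lower as reported, were 25 and 4504 under the same-sum scaling, which moved the share of higher genes among them from 53.8% to 0.552%, and 1411 were lower with array weights. Leaving out 1 animal gave 492 to 1509 higher and 566 to 1280 lower, the lowest of both without sham animal A11-1 and the highest without A12-1. The cause of these shifts was not tested. Under the same-sum scaling, which took the median of all genes to -0.276, the medians of 10 of 35 lists changed sign, and 3 did relative to that median (cell cycle, neurotrophins and clock). Of 3074 values of single genes under the alternatives, 2892 stayed within the limits, 173 moved and 9 newly passed the threshold. The contrasts with 7 and 28 dpi could not be fitted with the 14 dpi and sham animals alone. No paired analysis was possible because the animals of the groups share no replicate numbers. With the label prefix as a random block, 1218 genes were higher and 1042 lower at an unadjusted p under 0.05. Low values, rounded to 0.1, limit the precision of genes such as Rn7s6.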
